A study of Mus musculus with 24 samples.

Results

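Sedentary mice that received photobiomodulation therapy (PBMT, near-infrared light applied through the skin) were compared with sedentary control mice by RNA sequencing of the tibialis anterior (TA) muscle. The 12 libraries were chosen by their sample titles, 6 from PBMT mice and 6 from controls, out of 24 in the series. The other 12 came from mice run to fatigue, which were sequenced as a separate project and are used here for a test of the PBMT effect between exercise states, for 1 alternative fit and for values given side by side. All mice were male C57BL/6J, 5 to 7 weeks old, without a genetic modification named in the labels, and were kept with 12 h of light a day. PBMT mice were anesthetized, their hind limbs were shaved and depilated, and 830 nm light was given for 20 min at 25 mW/cm2, a dose of 30 J/cm2. Control mice were shaved, depilated and anesthetized without light, and the design had no heated group without light. The left TA was examined, which in PBMT mice was taken 24 h after the light, and the labels do not give the hour of the day for each mouse.

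The TA is a fast muscle of the lower hind limb, and most of its RNA comes from multinucleated fibers, with the rest from satellite cells, vessels, nerve, fat, resident macrophages and fibroblast-like progenitors between the fibers. Near-infrared light is thought to be absorbed in part by cytochrome c oxidase of the mitochondrial respiratory chain. Muscle cells answer many stimuli with immediate early genes, which are transcribed without new protein synthesis, and their fuel use follows the circadian clock, glucocorticoids and the insulin and FoxO pathway.

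Each library is a table of whole-number counts per gene. Totals ran from 43271093 to 46904076 counts in controls, with a median of 45278264, and from 46327516 to 52775844 with PBMT, with a median of 49421795.5. In 5 of 6 PBMT mice the total lay above that of every control (p = 0.00433 by an exact permutation test), and levels are given as CPM, which are counts scaled to a common normalized total. Mitochondrially encoded genes held 13.85% to 17.09% of the counts with PBMT and 15.53% to 16.96% in 5 controls, but 3.245% in control replicate 4. The share did not pass the test between groups with control replicate 4 (p = 0.682 by an exact permutation test) or without it (exact p = 0.634). Of the cell type lists examined, the fast fiber list had the highest sum, which ran from 130300 to 197700 CPM in controls and from 137000 to 180100 CPM with PBMT. Because control replicate 4 stands apart, each result below was computed with and without it.

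Of 14177 genes tested with edgeR, 3 were higher with PBMT (0.0212% of genes tested) and 1 was lower (0.00705%) at an adjusted p under 0.05. At an unadjusted p under 0.05, which is used below only to describe what each side holds, 472 genes were higher (3.33%) and 610 lower (4.3%). Every PBMT mouse lay above every control in 32 genes (0.226%) and below every control in 40 (0.282%). Without control replicate 4, 14273 genes were tested, of which 6 were higher (0.042%) and 12 lower (0.0841%) at an adjusted p under 0.05. The unadjusted limit then held 627 higher (4.39%) and 698 lower genes (4.89%), and the groups did not overlap in 65 higher (0.455%) and 90 lower genes (0.631%). Of these genes, 328 stood on the higher side in both fits, 69.5% of the side with all mice and 52.3% of the side without that mouse. On the lower side 434 genes stood in both fits, 71.1% and 62.2% of the respective sides. Control replicate 4 was not the only library that moved these counts. The number of called genes was 20 without PBMT replicate 5, 10 without PBMT replicate 2, 7 without PBMT replicate 4, and 2 without control replicate 1, 2 or 6. The genes at the unadjusted limit numbered 1754 in place of 1082 without PBMT replicate 2. With 1 mouse left out, the higher genes ran from 312 without PBMT replicate 1 to 801 without PBMT replicate 2. The lower genes ran from 440 without control replicate 3 to 953 without PBMT replicate 2. Counts of list members with 1 mouse left out, given below, are to be read beside these. The genes without overlap, 72 in all, numbered 259 without PBMT replicate 2, 157 without control replicate 6, 125 without PBMT replicate 5, 120 without control replicate 2 and 116 without PBMT replicate 4.

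Of the 4 called genes, 3 were on the higher side. Ccn1 encodes a secreted matrix-associated protein that is induced by growth factors, stretch and the coactivator YAP. Its level was lowest at 18.95, median 20.4 and highest 23.7 CPM in controls, and lowest at 34.8, median 45.6 and highest 57.4 CPM with PBMT. The groups did not overlap, and Ccn1 rose by 1.14 on the log2 scale with all mice (edgeR adjusted p = 3.84e-04, 6 of 6 PBMT mice above every control) and by 1.18 without control replicate 4 (edgeR adjusted p = 5.99e-04). Egr1, a zinc finger transcription factor of the immediate early class, had a lowest level of 1.68, a median of 2.05 and a highest of 3.27 CPM in controls, against 6.07, 16.2 and 34.7 CPM with PBMT. All 6 PBMT mice were above every control, and the PBMT mice themselves spread over a wider range than the controls. Egr1 rose by 2.98 on the log2 scale (edgeR adjusted p = 0.0139), but the call was lost without control replicate 1, 2, 4, 5 or 6, where the edgeR adjusted p was 0.0585, 0.0552, 0.0616, 0.0675 and 0.0819 in that order. Cited2 encodes a coregulator that binds the acetyltransferases p300 and CBP and competes with hypoxia-inducible factors, and its gene lies on the plus strand at chr10:17723218-17725674 of GRCm38. It had a lowest level of 26.9, a median of 32.2 and a highest of 36.65 CPM in controls, against 42.34, 53.05 and 59.05 CPM with PBMT, again without overlap. Cited2 rose by 0.66 on the log2 scale (edgeR adjusted p = 0.0183, 6 of 6 PBMT mice above every control) and by 0.69 without control replicate 4 (edgeR adjusted p = 0.0117). Its call was lost without control replicate 1, 2, 3 or 6 (edgeR adjusted p of 0.0585, 0.0552, 0.07065 and 0.0819) and without PBMT replicate 1, 3 or 6 (0.0928, 0.07597 and 0.06695). With all 24 mice in 1 fit the calls of Ccn1, Egr1 and Cited2 were lost (edgeR adjusted p of 0.116, 0.113 and 0.389), and that of Egr1 was also lost without a filter on low counts (edgeR adjusted p = 0.0513) and in limma voom (adjusted p = 0.141). In the fit of all 24 mice the sedentary log2 fold changes were 1.13 for Ccn1 and 2.97 for Egr1.

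Nfil3, a basic leucine zipper repressor of clock output genes that is also an immediate early gene, was the single called gene of the lower side. Its level was lowest at 28.0, median 31.5 and highest 37.0 CPM in controls, and lowest at 13.2, median 16.1 and highest 21.4 CPM with PBMT. All 6 PBMT mice lay below every control, and Nfil3 fell by 0.96 on the log2 scale (edgeR adjusted p = 9.25e-04) and by 1.00 without control replicate 4 (edgeR adjusted p = 5.99e-04). In fatigued muscle Nfil3 was higher by 0.14 on the log2 scale, and the difference between the effects of PBMT in the 2 exercise states was 1.11 (edgeR adjusted p = 0.0037). It was the only gene of 15108 (0.00662%) for which that difference passed in edgeR, while 665 genes had an unadjusted p under 0.05 and DESeq2 called 3. For Ccn1, the log2 fold change was 0.10 in fatigued muscle, and the difference did not pass (edgeR adjusted p = 0.946).

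**Figure D1:**
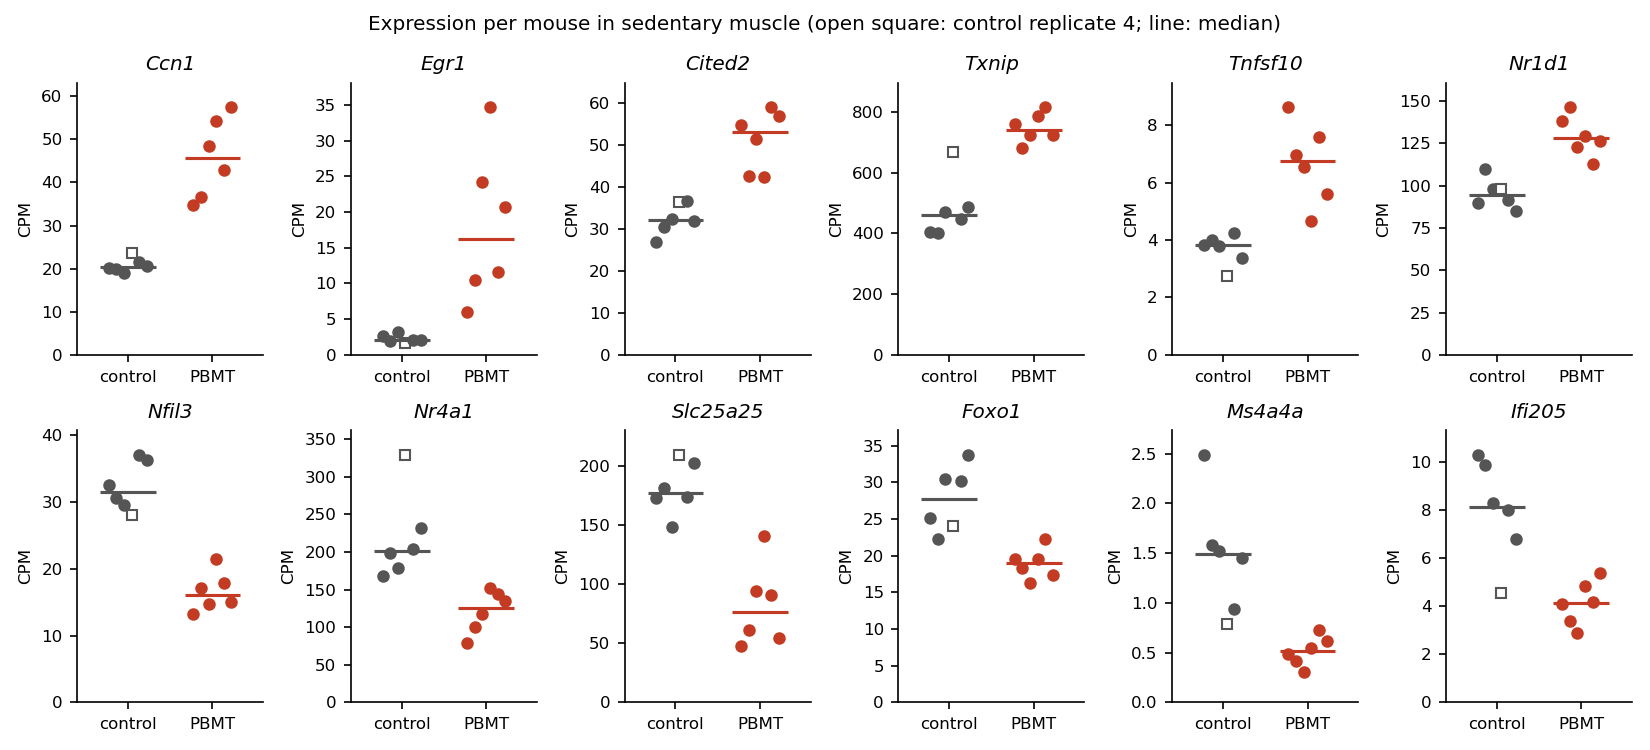
Expression of 12 genes in each mouse in CPM, with 6 controls and 6 PBMT mice per panel, control replicate 4 as an open square and the group median as a line. Ccn1, Egr1, Cited2 and Nfil3 passed the adjusted test with all mice, and the other 8 genes did not.

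Promoter sequence is shown for Ccn1, Cited2 and Nfil3, called genes that stand on opposite sides, and for Nr4a1, an immediate early gene of the lower side described below. All 4 were matched by symbol in the RefSeq promoter table of build GRCm38.p6, and the 250 bases before the RefSeq start are given 5′ to 3′ on the strand of the gene. Bases that GENCODE M21 places in an exon of the gene were left out, 10 for Cited2 and 34 for Nfil3. Capitals mark matches on either strand to TGACG, the core of the cyclic AMP response element (read as CGTCA on the other strand), to GGAATG, the element of TEAD factors (CATTCC on the other strand), and to CACGTG, the E-box. Among 32851 promoter windows of 250 bases, 17.8% held TGACG, 12.6% held GGAATG and 6.02% held CACGTG. The AP-1 element TGANTCA, which begins with the same TGA as TGACG, was held by 6.75% and the EGR element GCGTGGGCG by 0.536%, and neither was in these 4 windows. The windows are chr3:145649986-145650235 on the minus strand for Ccn1, chr10:17722978-17723217 on the plus strand for Cited2, chr13:52981074-52981289 on the minus strand for Nfil3 and chr15:101266596-101266845 on the plus strand for Nr4a1. The first 3 lie just upstream of the annotated gene, and that of Nr4a1 lies in an intron of its longer transcripts, directly before an annotated exon.
Ccn1: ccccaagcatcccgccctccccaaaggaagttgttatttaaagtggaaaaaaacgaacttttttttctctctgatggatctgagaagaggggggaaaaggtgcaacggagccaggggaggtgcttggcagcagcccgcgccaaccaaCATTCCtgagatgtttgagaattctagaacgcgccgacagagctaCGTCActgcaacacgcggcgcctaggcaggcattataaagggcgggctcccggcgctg
Cited2: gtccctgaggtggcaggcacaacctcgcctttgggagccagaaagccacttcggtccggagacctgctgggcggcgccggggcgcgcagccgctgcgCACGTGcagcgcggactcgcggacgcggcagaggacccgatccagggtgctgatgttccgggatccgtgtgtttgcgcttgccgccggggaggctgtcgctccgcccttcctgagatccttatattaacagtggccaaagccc
Nfil3: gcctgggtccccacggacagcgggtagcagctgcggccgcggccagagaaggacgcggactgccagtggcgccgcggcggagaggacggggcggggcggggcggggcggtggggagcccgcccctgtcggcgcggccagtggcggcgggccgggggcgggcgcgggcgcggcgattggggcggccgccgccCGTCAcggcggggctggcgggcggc
Nr4a1: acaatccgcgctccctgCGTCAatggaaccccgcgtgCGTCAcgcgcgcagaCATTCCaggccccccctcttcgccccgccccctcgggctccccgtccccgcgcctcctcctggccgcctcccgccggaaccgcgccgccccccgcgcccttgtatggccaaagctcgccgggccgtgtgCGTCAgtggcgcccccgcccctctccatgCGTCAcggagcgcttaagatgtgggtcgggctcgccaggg
TGACG was matched on the other strand once in Ccn1, 58 to 54 bases before the start, and once in Nfil3, 59 to 55 bases before the start. Ccn1 also held GGAATG on the other strand at 103 to 98 bases before the start. Cited2 held CACGTG at 153 to 148 bases. The Nr4a1 window held 4 matches to TGACG on the other strand, which began 233, 213, 69 and 40 bases before the start, and a match to GGAATG at 198. These matches describe letters in the windows and say nothing of a factor at them.

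Immediate early genes, which code mostly for transcription factors and feedback regulators, stood on both sides. Of 37 tested, 17 were higher and 20 lower, and 6 higher and 9 lower genes were at the unadjusted limit, 16.2% and 24.3% of the list beside 3.33% and 4.3% of all genes. Their median log2 fold change was -0.05 beside -0.0019 over all genes, without control replicate 4 it changed sign to 0.02, and with a trend on exon length taken out of each library it was -0.02. The median was -0.08, -0.12 and -0.02 without control replicate 1, 2 and 3, and -0.01, -0.03, -0.11 and -0.08 without PBMT replicate 1, 2, 4 and 5, so its size depended on single mice. The higher members were led by Egr1 and by Fos, a subunit of the factor AP-1. Fos had a lowest level of 1.07, a median of 5.30 and a highest of 8.12 CPM in controls, against 5.59, 17.8 and 38.6 CPM with PBMT, and 4 of 6 PBMT mice lay above every control. Fos did not pass the adjusted test in edgeR with all mice. The kappa B inhibitor family member Nfkbiz was higher by 0.72 and the TGF-beta-inducible repressor Klf10 by 0.45 on the log2 scale, and neither passed the adjusted test.

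The lower members held an orphan nuclear receptor, a kinase and small nuclear factors. Nr4a1, an orphan nuclear receptor that promotes glycolytic and oxidative gene expression in muscle, had a lowest level of 168, a median of 202 and a highest of 329 CPM in controls, against 79.5, 126 and 153 CPM with PBMT. The groups did not overlap, and the highest value was that of control replicate 4. Its log2 fold change was -0.85 (edgeR adjusted p = 0.119, 6 of 6 PBMT mice below every control). Sik1, a salt-inducible kinase that restrains CREB coactivators, had a lowest level of 16.9, a median of 20.98 and a highest of 27.84 CPM in controls, against 8.769, 11.07 and 17.02 CPM with PBMT. Its log2 fold change was -0.80, and it passed without PBMT replicate 5 (-0.90, edgeR adjusted p = 0.0438) but not with all mice. Slc25a25 is not on that list, but it encodes a calcium-regulated carrier that brings ATP-magnesium into mitochondria. It ran from 148 to 209.6 CPM in controls and from 47.9 to 141 CPM with PBMT, without overlap, at a log2 fold change of -1.15 (edgeR adjusted p = 0.112, 6 of 6 PBMT mice below every control). Slc25a25 passed without PBMT replicate 4 (-1.385, edgeR adjusted p = 0.00186). Fosl2, an AP-1 subunit, ran from 14.1 to 16.85 CPM in controls and from 10.8 to 12.7 CPM with PBMT, and passed without control replicate 4 (-0.38, edgeR adjusted p = 0.038). Fosl2 did not pass with all mice (-0.36, edgeR adjusted p = 0.1186). Csrnp1, Ier5 and Maff, a nuclear protein, a nuclear regulator and a small Maf factor, were lower by -0.60, -0.67 and -0.59 on the log2 scale and did not pass.

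Genes of dual-specificity phosphatases and of feedback on the kinase ERK, and genes driven by YAP and TEAD, leaned to the higher side. Of 18 dual-specificity phosphatase and ERK feedback genes, 13 were higher and 5 lower, with a median of 0.15 (0.21 without control replicate 4, and 0.05 without PBMT replicate 2). In this list 4 genes were at the unadjusted limit on the higher side and 1 on the lower, 22.2% and 5.56% beside 3.33% and 4.3% of all genes, and the lower count was 2 without PBMT replicate 5. Dusp10, a phosphatase of p38 and JNK, had a lowest level of 12.1, a median of 16.4 and a highest of 20.1 CPM in controls, against 19.7, 35.2 and 52.4 CPM with PBMT. In Dusp10 5 of 6 PBMT mice lay above every control, and it passed without PBMT replicate 5 (1.17 on the log2 scale, edgeR adjusted p = 0.0167) but not with all mice (1.05, edgeR adjusted p = 0.0896). The other 3 were Dusp4, a nuclear phosphatase of ERK, and the ERK pathway inhibitors Spry2 and Spred2, higher by 0.62, 0.32 and 0.32. Of 24 YAP and TEAD genes, 16 were higher and 8 lower, with a median of 0.11 (0.13 without control replicate 4). Ccn1, Yap1 itself and the angiomotin Amotl1 were the 3 at the unadjusted limit on the higher side (12.5% beside 3.33% of all genes), and 5 were there without control replicate 4. On the lower side 1 gene was there (4.17% beside 4.3%), 2 without control replicate 3 or 5 or PBMT replicate 4 or 6, and no gene in edgeR without control replicate 1, 2, 4 or 6 or PBMT replicate 1 or 3. With the replicate number as a block in the fit, 3 were at the limit on each side. Rgs2, which speeds the turn-off of G proteins of the Gq class, had a lowest level of 2.14, a median of 2.96 and a highest of 4.03 CPM in controls, against 4.00, 4.55 and 6.27 CPM with PBMT. The highest control was replicate 4, and Rgs2 passed without it (0.82 on the log2 scale, edgeR adjusted p = 0.0283) but not with all mice (0.72, edgeR adjusted p = 0.1185).

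Clock genes were described in 2 classes, those that peak with Bmal1, the core activator encoded by Arntl, and those that peak opposite to it, with other clock genes apart. Of the 5 in the class of Bmal1, Arntl, its partner Clock and the Clock paralog Npas2 were higher by 0.54, 0.35 and 1.32 on the log2 scale, while Nfil3 fell. Arntl ran from 6.15 to 8.21 CPM in controls and from 8.77 to 13.2 CPM with PBMT without overlap, at an edgeR adjusted p of 0.144 (6 of 6 PBMT mice above every control). In the opposite class of 11 genes, 4 were higher and 7 lower. The repressor Nr1d1 had a lowest level of 84.8, a median of 94.7 and a highest of 109.5 CPM in controls, against 113, 128 and 146 CPM with PBMT. It passed without control replicate 4 (0.45 on the log2 scale, edgeR adjusted p = 0.0283) and without PBMT replicate 5 (0.47, edgeR adjusted p = 0.0316), but not with all mice (0.44, edgeR adjusted p = 0.0562). Bhlhe40, a repressor of Bmal1 and Clock targets, ran from 89.26 to 122 CPM in controls and from 122.3 to 161.7 CPM with PBMT, and passed without PBMT replicate 5 (0.48, edgeR adjusted p = 0.0316) but not with all mice. Its paralog Bhlhe41 was higher by 0.27. On the lower side of the same class stood the period gene Per1 and the albumin D-box activator Dbp, at -0.53 and -0.27 on the log2 scale, and neither passed. The highest level of Dbp was 143.5 CPM, in control replicate 4, and without that mouse the log2 fold change of Dbp was -0.15. Of 12 other clock genes tested, 5 were higher and 7 lower, or 6 and 6 without control replicate 4. Among these, the deubiquitinase Usp2 and the cell cycle kinase Wee1 were lower by -0.37 and -0.52 without passing. Members of both classes thus stood on both sides, with and without control replicate 4.

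Targets of glucocorticoids and FoxO factors leaned to the lower side. Of 36 tested, 10 were higher and 26 lower, with a median of -0.17, and 10 were at the unadjusted limit on the lower side, 27.8% of the list beside 4.3% of all genes. Without control replicate 4 the median was -0.11, with 14 higher and 22 lower, and 8 at the unadjusted limit. Without PBMT replicate 2 it was -0.07, with 15 higher and 21 lower. Foxo1, a transcription factor held back by insulin, had a lowest level of 22.2, a median of 27.7 and a highest of 33.75 CPM in controls, against 16.3, 18.9 and 22.3 CPM with PBMT. In Foxo1 5 of 6 PBMT mice lay below every control. It did not pass with all mice (-0.55, edgeR adjusted p = 0.0896) but passed without control replicate 4 (-0.59, edgeR adjusted p = 0.038) and without PBMT replicate 5 (-0.60, edgeR adjusted p = 0.0467). Zbtb16, a glucocorticoid-induced zinc finger repressor, ran from 46.7 to 74.15 CPM in controls, the highest being replicate 4, and from 37.2 to 46.1 CPM with PBMT. The insulin receptor substrate Irs2 was lower by -0.47 on the log2 scale, also without overlap between groups. The stress kinase Map3k6 and the glucocorticoid-induced leucine zipper gene Tsc22d3 were lower by -0.85 and -0.39, with overlap.

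Txnip was the 1 gene of that list at the unadjusted limit on the higher side (2.78% beside 3.33% of all genes). It encodes the thioredoxin-interacting protein, which restrains glucose uptake, and lies on the plus strand at chr3:96557957-96561883 of GRCm38. Its lowest level was 400, its median 460 and its highest 668 CPM in controls, against 680, 742 and 816 CPM with PBMT. The value of 668 CPM belonged to control replicate 4, and the other 5 controls reached at most 488 CPM. Txnip did not pass with all mice (0.64 on the log2 scale, edgeR adjusted p = 0.0503, 6 of 6 PBMT mice above every control). It passed without control replicate 4 (0.76, edgeR adjusted p = 1.26e-04) and without PBMT replicate 2 (0.67, edgeR adjusted p = 0.0398).

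Fatty acid uptake and oxidation genes also leaned to the lower side. Of 46 tested, 10 were higher and 36 lower, with a median of -0.11 (-0.08 without control replicate 4 and -0.07 without PBMT replicate 6). At the unadjusted limit 8 were lower (17.4% beside 4.3% of all genes), or 7 without control replicate 4, while 5 were lower without control replicate 6 or PBMT replicate 1, 3 or 5 and 3 without PBMT replicate 6. Ucp3, the uncoupling protein of muscle mitochondria, had a lowest level of 140, a median of 158 and a highest of 203.5 CPM in controls, against 51.45, 94.95 and 146.3 CPM with PBMT. In Ucp3 5 of 6 PBMT mice lay below every control, at a log2 fold change of -0.83 that did not pass (edgeR adjusted p = 0.337). Its relative Ucp2 was lower by -0.48, the malonyl-CoA decarboxylase Mlycd by -0.30 and the carnitine palmitoyltransferase Cpt1a by -0.27 on the log2 scale. Without control replicate 4, which had the highest Mlycd, the value for Mlycd was -0.18. Noct, a clock-controlled phosphatase of NADP cofactors, had a lowest level of 31.9, a median of 41.98 and a highest of 45.05 CPM in controls, against 18.3, 23.4 and 34.1 CPM with PBMT, and passed without PBMT replicate 5 (-0.77, edgeR adjusted p = 0.0209) but not with all mice. In glycolysis and glycogen genes, 20 of 43 were higher and 23 lower, with a median of -0.0080 that changed sign without control replicate 4, to 0.03, and also without PBMT replicate 5 or 6, and was -0.02 with the length trend taken out. Pfkfb3, which makes the activator of phosphofructokinase, was higher by 0.59, and Ppp1r3c, a glycogen-targeting subunit of protein phosphatase, was lower by -0.47, and neither passed.

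Markers of myeloid cells, chiefly resident macrophages in muscle, stood on the lower side. All 16 were tested and all 16 were lower with PBMT, with a median log2 fold change of -0.63 (-0.77 without control replicate 4). Without control replicate 1, the mouse with the highest sum of these markers, the median was -0.41 and 7 were at the unadjusted limit. At the unadjusted limit 10 of the 16 were lower, 62.5% beside 4.3% of all genes, and 13 without control replicate 4. The summed level of the list was 170, 117, 129, 67.8, 82.9 and 79.8 CPM in control replicates 1 to 6, and it ran from 47.5 to 94.05 CPM with PBMT. The groups overlapped in this sum, since 3 of 6 PBMT mice lay below the lowest control, which was replicate 4. The ratio of the group means was 0.632, or 0.589 without control replicate 4. Lyz2, the lysozyme of macrophages and neutrophils, was the most abundant member, and it ran from 21.96 to 64.34 CPM in controls and from 15.5 to 33.7 CPM with PBMT. Of the defining markers Cd68, Adgre1, Csf1r, Lyz2 and Mrc1, none was at 0 in any mouse. In these bulk libraries, fewer macrophages and less of these RNAs per macrophage cannot be told apart.

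Complement and scavenger genes of resident macrophages were among these members. C1qb, a chain of the complement component C1q, had a lowest level of 5.99, a median of 8.21 and a highest of 12.9 CPM in controls, against 2.81, 4.21 and 6.497 CPM with PBMT. The other chains C1qa and C1qc were lower by -0.84 and -0.89 on the log2 scale, and C1qb by -0.95. Cd163, the scavenger receptor for hemoglobin, ran from 4.70 to 10.8 CPM in controls and from 2.37 to 7.15 CPM with PBMT, with 5 of 6 PBMT mice below every control. Csf1r, the receptor that macrophages need to survive, was lower by -0.55. None of these 5 passed in edgeR with all mice, and the smallest adjusted p among them was 0.296, for C1qc and at -0.89 with 5 of 6 PBMT mice below every control. DESeq2 called C1qb, C1qc and Cd163 (DESeq2 adjusted p of 0.0285, 0.0319 and 0.044). The chemokine gene Ccl6, which is not on the list, was lower by -0.89 with 5 of 6 PBMT mice below every control (edgeR adjusted p = 0.168), and Lyve1, a hyaluronan receptor of lymphatic vessels and of some macrophages, by -0.76 with 6 of 6 (edgeR adjusted p = 0.351).

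Ms4a4a, Ms4a6c and Ms4a6b, which code for membrane proteins of hematopoietic cells, were lower with PBMT, and other genes of their cluster are not described here. Ms4a4a had a lowest level of 0.784, a median of 1.49 and a highest of 2.49 CPM in controls, against 0.305, 0.514 and 0.733 CPM with PBMT, without overlap. It did not pass with all mice (-1.49 on the log2 scale, edgeR adjusted p = 0.0896) and passed without control replicate 4 (-1.62, edgeR adjusted p = 0.0283) and without PBMT replicate 5 (-1.62, edgeR adjusted p = 0.0474). Ms4a6c and Ms4a6b passed without control replicate 4 only, at -1.42 (edgeR adjusted p = 0.0283) and -1.34 (edgeR adjusted p = 0.0311), and control replicate 4 held their lowest control level. With all mice they were at -1.28 (edgeR adjusted p = 0.124) and -1.14 (edgeR adjusted p = 0.349). Members of this cluster resemble each other in sequence, so reads could have been shared between them. The same holds for the interferon-inducible Ifi200 family of DNA sensors. Ifi205 had a lowest level of 4.55, in control replicate 4, a median of 8.12 and a highest of 10.3 CPM in controls, against 2.90, 4.12 and 5.39 CPM with PBMT. Ifi205 did not pass with all mice (-0.95, edgeR adjusted p = 0.0896) and passed without control replicate 4 (-1.06, edgeR adjusted p = 0.00999). Ifi207 did not pass with all mice either (-0.61, edgeR adjusted p = 0.598) and passed without control replicate 4 (-0.79, edgeR adjusted p = 0.038). In the wider interferon-inducible list 31 of 43 were lower and 12 higher at a median of -0.10 (-0.09 without control replicate 4), with 2 genes at the unadjusted limit in each direction, 4.65% beside 3.33% and 4.3% of all genes. That median was -0.06, -0.04 and -0.15 without control replicate 3, 5 and 6, and -0.18 and -0.03 without PBMT replicate 2 and 4. The count at the unadjusted limit on the lower side was 6 without control replicate 6, 5 without PBMT replicate 2, and 1 without control replicate 5 or PBMT replicate 1, 4 or 6. On the higher side it was 4 without PBMT replicate 4 and 1 without control replicate 1 or 6 or PBMT replicate 1 or 3. The receptor gene Ifngr1, for interferon gamma, ran from 23.7 CPM in control replicate 4 to 35.2 CPM in controls and from 21.05 to 25.8 CPM with PBMT, and passed without that mouse (-0.41, edgeR adjusted p = 0.0283). Ifngr1 did not pass with all mice (-0.35, edgeR adjusted p = 0.296). The part of cell type composition in these genes was not tested.

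Other cell types gave smaller or mixed values. Of 16 mesenchymal progenitor markers, 15 were lower and 1 higher, with a median of -0.26 (-0.33 without control replicate 4). At the unadjusted limit 5 were lower (31.2% beside 4.3% of all genes), a count that ranged from 2 without control replicate 2 and 3 without control replicate 1 or 3 or PBMT replicate 3, 4 or 5 to 8 without PBMT replicate 2 and 9 without PBMT replicate 6. Their sum ran from 1336 to 1973 CPM in controls and from 1058 to 1870 CPM with PBMT, and the actin-severing protein gene Gsn, which fibers also express, was the most abundant. Clec3b, Ly6a and Smoc2, a plasminogen-binding protein, the surface antigen Sca-1 and a matrix calcium-binding protein, were lower by -0.45, -0.26 and -0.26 on the log2 scale without passing. The defining markers Pdgfra, Dcn, Dpt and Pi16 were above 0 in every mouse.

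Neutrophil markers were lower in all 7 tested with a median of -0.43 (-0.46 without control replicate 4), none at the unadjusted limit in edgeR. Over the alternatives that left no mouse out, the median ran from -0.79 to -0.41. Without PBMT replicate 1 the median was -0.20 and without PBMT replicate 2 it was -0.22, with 6 of 7 lower in each, and without PBMT replicate 3 it was -0.85. Their sum was 1.46 CPM in PBMT replicate 1 and 5.58 CPM in PBMT replicate 2 against 28.5 to 65.3 CPM in controls and 32.85 to 68.92 CPM in the other 4 PBMT mice. Their most abundant gene was the calprotectin subunit S100a9, and Ly6g was at 0 in 1 mouse. Schwann cell and nerve markers were higher in 12 of 13 with a median of 0.19 (0.24 without control replicate 4), but the median was 0.12 without control replicate 1 and -0.08 without PBMT replicate 6. Of 18 endothelial markers 8 were higher and 10 lower. Their median of -0.02 (-0.03 without control replicate 4) ran, with 1 mouse left out, from -0.09 without PBMT replicate 2 to 0.04 without PBMT replicate 6 and was -0.04 with the length trend taken out, and their sums ran from 599 to 672 CPM in controls and from 503 to 769 CPM with PBMT. T and B cell genes were near 0 counts, with 1 of 10 above the filter. Skin keratinocyte markers summed to 41.0 CPM in PBMT replicate 4 and 18.5 CPM in PBMT replicate 2, and to between 8.30 and 14.0 CPM in all other mice. The keratin genes Krt1, Krt5 and Krt14 were at 0 counts in 9, 7 and 7 of the 12 mice. Erythrocyte markers had a sum of 75.7 to 155 CPM in controls and 68.7 to 149 CPM with PBMT. The part of these cell types in the results was not tested.

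**Figure D2:**
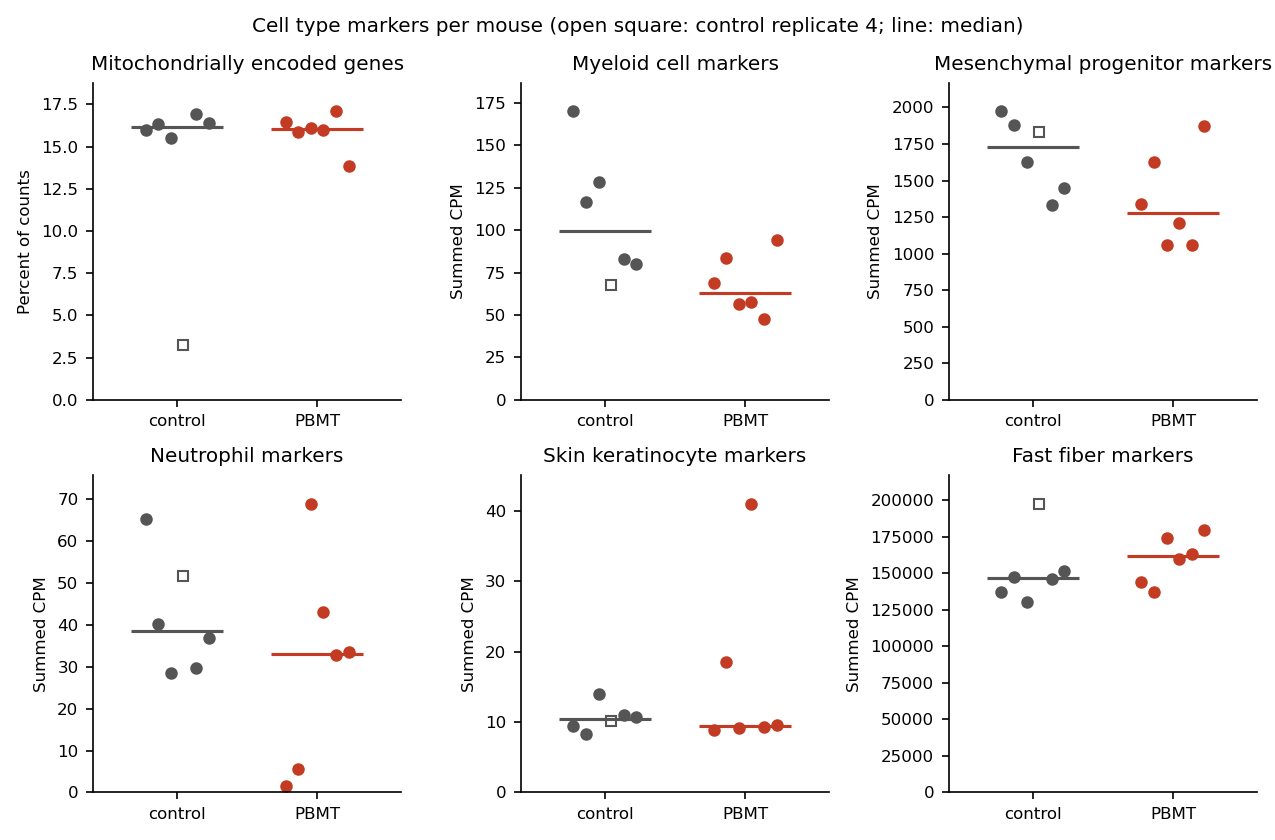
Percent of counts from mitochondrially encoded genes, and summed CPM of 5 marker lists, in each of 6 control and 6 PBMT mice, with control replicate 4 as an open square and the median as a line. Control replicate 4 lies at 3.245% in the mitochondrial panel, and the myeloid sums run from 67.8 to 170 CPM in controls and from 47.5 to 94.05 CPM with PBMT.

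With all mice, nuclear genes for the respiratory chain were lower in nearly every member by a small amount. Of 37 nuclear genes of complex I, which takes electrons from NADH, 34 were lower and 3 higher, with a median of -0.14, and without control replicate 4 all 37 were lower, with a median of -0.13. All 9 tested for complex III and all 14 for complex IV were lower, at medians of -0.17 and -0.13 (8 of 9 and 13 of 14 without control replicate 3), and 18 of 20 for complex V, the ATP synthase, at -0.12. Without control replicate 3 or PBMT replicate 6 the median was -0.07 for complex IV and -0.06 for complex V. The lower members of complex V were then 14 of 20 and 15 of 20, respectively. The members at the unadjusted limit on the lower side were 8 for complex I (21.6%), 3 for complex III (33.3%), 1 for complex IV (7.14%) and 1 for complex V (5%), beside 4.3% of all genes. For complex I this count was 15 without control replicate 6, 16 without PBMT replicate 2, 4 without PBMT replicate 5, 3 without control replicate 3 and 2 without PBMT replicate 6. For complex IV it was 3 without PBMT replicate 2, 2 without control replicate 1 or 6, and no gene in edgeR without PBMT replicate 1, 4, 5 or 6. For complex V it was 3 without control replicate 4 or 6 or PBMT replicate 2, 2 without control replicate 1 or 2, and no gene in edgeR without control replicate 3 or PBMT replicate 6. For complex III it was 5 without control replicate 6 or PBMT replicate 2 and 1 without control replicate 3 or 5 or PBMT replicate 3, 4 or 6. Over all genes the lower side held 953 of 14266 without PBMT replicate 2, 830 of 14306 without control replicate 6 and 509 of 14302 without PBMT replicate 5. It held 440 of 14270 without control replicate 3 and 538 of 14275 without PBMT replicate 6, in place of 610 of 14177. Ndufa5, an accessory subunit of complex I, had a lowest level of 127, a median of 143 and a highest of 190 CPM in controls, against 101, 122 and 142 CPM with PBMT. The value of 190 CPM was that of control replicate 4, and the log2 fold change of Ndufa5 was -0.31 with it and -0.23 without it. Ndufs3, Uqcr10 and Atp5h, subunits of complexes I, III and V, were lower by -0.27, -0.25 and -0.24 without passing. Cox6a1 of complex IV was lower by -0.43, and by -0.18 without control replicate 4, in which it was highest at 26.5 CPM. These genes are short, and with the trend on exon length taken out of each library the medians were -0.09 for complex I, -0.09 for complex III, -0.05 for complex IV and -0.10 for complex V. The lower members were then 30 of 37, 7 of 9, 9 of 14 and 14 of 20 in the same order, and at the unadjusted limit in edgeR were 4 of complex I, 1 of complex V and no longer any of complex III or IV.

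Mitochondrially encoded genes, which supply the core subunits of complexes I, III, IV and V, had a median whose sign turned without control replicate 4. With all mice 17 of 21 tested were higher with a median of 0.19, and without control replicate 4 the median was -0.01, with 10 higher and 11 lower. No member was at the unadjusted limit in edgeR with all mice.

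Ribosomal protein genes of both kinds also leaned to the lower side. Of 80 genes of the mitochondrial ribosome, 74 were lower and 6 higher, with a median of -0.11 (-0.09 without control replicate 4), and -0.07 with the length trend taken out, where 66 were lower and 14 higher. Of 83 genes of the cytosolic ribosome, 72 were lower and 11 higher, with a median of -0.08 (-0.07 without control replicate 4), and -0.03 with the length trend taken out, where 50 were lower and 33 higher. At the unadjusted limit 11 and 10 members were lower, 13.8% and 12% beside 4.3% of all genes, and 4 and 6 with the length trend taken out. For the mitochondrial ribosome that count was 22 without PBMT replicate 2, 19 without control replicate 6, 7 without control replicate 5 or PBMT replicate 1, 6 without PBMT replicate 4, 5 without PBMT replicate 3, 4 without PBMT replicate 5, 3 without control replicate 3 and 2 without PBMT replicate 6. For the cytosolic ribosome it was 20 without control replicate 6 and 6 without PBMT replicate 5. Over all genes the lower side held 953 of 14266 without PBMT replicate 2, 830 of 14306 without control replicate 6 and 509 of 14302 without PBMT replicate 5. It held 440 of 14270 without control replicate 3 and 538 of 14275 without PBMT replicate 6, in place of 610 of 14177. Mrpl28 and Mrpl46 of the mitochondrial ribosome were lower by -0.26 and -0.19 on the log2 scale, and Rps12 and Rpl35a of the cytosolic ribosome by -0.23 and -0.16, and none of the 4 passed. Some entries of these lists are near-identical copies of other ribosomal genes, so their single values are uncertain.

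Antioxidant genes under the factor Nrf2 had 21 of 33 lower and 12 higher, with a median of -0.05 (-0.07 without control replicate 4). The median was -0.02 and -0.03 without control replicate 1 and 3, and -0.03 and -0.07 without PBMT replicate 2 and 6. With the length trend taken out it was -0.03. At the unadjusted limit 7 were lower (21.2% beside 4.3% of all genes), and 4 with the length trend taken out, 4 without control replicate 4 or PBMT replicate 4, 3 without PBMT replicate 6, 2 without control replicate 3 or PBMT replicate 3 or 5, and 1 without PBMT replicate 1. The metallothionein Mt1, also a glucocorticoid target, was lower by -0.57, and the peroxiredoxins Prdx2 and Prdx5 and the mitochondrial thioredoxin Txn2 by -0.24, -0.26 and -0.17. Coq10b is not on that list, but it encodes a protein needed for the function of coenzyme Q in electron transfer, and it was lower too. It lies at chr1:55052770-55072702 of GRCm38, and had a lowest level of 16.8 CPM, in control replicate 4, a median of 29.6 and a highest of 31.6 CPM in controls, against 17.5, 19.6 and 21.7 CPM with PBMT. The other 5 controls were at 26.2 CPM or above, so that without control replicate 4 the groups did not overlap. Coq10b did not pass with all mice (-0.50, edgeR adjusted p = 0.275) and passed without control replicate 4 (-0.60, edgeR adjusted p = 5.99e-04).

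Some lists of chromatin and transcription regulators leaned to the higher side and others did not. Corepressors and deacetylases had 16 higher and 16 lower, histone genes 15 and 14, and Klf and Sp factors 9 and 8. Without control replicate 4 the corepressors and deacetylases had 22 higher and 10 lower, and the other 2 lists had the same counts. Of 344 zinc finger genes with Zfp names, most of which are thought to repress transcription, 256 were higher and 88 lower, with a median of 0.10 (0.07 without control replicate 4). In this list 30 genes were at the unadjusted limit on the higher side and 1 on the lower, 8.72% and 0.291% of the list beside 3.33% and 4.3% of all genes. Without control replicate 4 these were 22 and 5, and the higher count was 15 without control replicate 3, 18 without PBMT replicate 1 and 19 without PBMT replicate 3 or 4. The lower count was 4 without PBMT replicate 2, 3 without control replicate 3, and 2 without control replicate 2 or PBMT replicate 6. Zfp273 had a lowest level of 0.675, in control replicate 4, a median of 1.21 and a highest of 1.67 CPM in controls, against 1.90, 2.28 and 3.04 CPM with PBMT, without overlap, and its log2 fold change was 0.91 (edgeR adjusted p = 0.168, 6 of 6 PBMT mice above every control). Zfp719 was higher by 0.46, also without overlap, and Zfp36l1, which despite its name degrades messenger RNAs with AU-rich elements, by 0.50. Zfp189 was the single gene at the unadjusted limit on the lower side, at -0.35.

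All 31 histone acetyltransferase and coactivator genes were higher, with a median of 0.13 (0.11 and all 31 without control replicate 4). Without control replicate 3 the higher members were 26, and without control replicate 6 or PBMT replicate 1 they were 28. At the unadjusted limit 5 were higher (16.1% beside 3.33% of all genes), 3 with the length trend taken out, 12 without PBMT replicate 2, 10 without control replicate 6, 3 without control replicate 5 or PBMT replicate 1 or 5, and 2 without control replicate 3. Over all genes the higher side held 801 of 14266 without PBMT replicate 2 and 662 of 14306 without control replicate 6. It held 331 of 14270 without control replicate 3, in place of 472 of 14177. The higher members include the steroid receptor coactivator Ncoa1, the acetyltransferases Kat6b and Ep300, and the Mediator subunit Med14, higher by 0.31, 0.28, 0.25 and 0.29 on the log2 scale without passing. Ncoa1 ran from 22.4 to 33.3 CPM in controls and from 30.65 to 37.56 CPM with PBMT, with 5 of 6 PBMT mice above every control. Of 38 histone methylation genes, 33 were higher and 5 lower, with a median of 0.09 (0.10 without control replicate 4), the methyltransferases Setd1b and Nsd3 at 0.25 and 0.22 among them. Without control replicate 3 the median was 0.04, with 26 higher and 12 lower. With the trend on exon length taken out, 26 of 31 acetyltransferase and coactivator genes were higher at a median of 0.08, and 24 of 38 histone methylation genes at 0.03. Among single genes outside these lists, the DNA demethylase Tet2 had a median of 9.789 CPM in controls and 12.49 CPM with PBMT, without overlap. The zinc finger factor Mecom was higher by 0.49, with 5 of 6 PBMT mice above every control and its lowest control in replicate 4.

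Muscle development genes were higher in 42 of 59, with a median of 0.07 (0.11 without control replicate 4). Without control replicate 6 the median was 0.04, with 37 higher and 22 lower. Of these genes 9 were at the unadjusted limit on the higher side and 3 on the lower, 15.3% and 5.08% beside 3.33% and 4.3% of all genes, or 12 and 2 without control replicate 4. The 9 hold 2 of the called genes described above. Egr1 is one of them, at the highest log2 fold change of this list and of the immediate early list (2.98), so these lists share members. The lower count was 1 without PBMT replicate 1 or 5. The satellite cell markers were higher in 7 of 12 and lower in 5, with and without control replicate 4. Pax7, the defining factor of satellite cells, had a lowest level of 1.07, in control replicate 4, a median of 1.58 and a highest of 2.08 CPM in controls, against 1.51, 2.17 and 2.63 CPM with PBMT, and 4 of 6 PBMT mice lay above every control. The marker list also held Sdc4, a heparan sulfate proteoglycan of the cell surface, which ran from 16.49 to 26.75 CPM in controls, the highest being replicate 4, and from 14 to 16.44 CPM with PBMT, without overlap and in the other direction. Mef2a, a factor that drives muscle genes, was higher by 0.26, and the inhibitors of myogenic factors Id1 and Id3 were lower by -0.52 and -0.41 on the log2 scale. For Id1 the highest control was replicate 4 at 29.4 CPM, and without it the value was -0.21. The sum of the satellite cell markers, 149.6 to 213 CPM in controls and 146 to 171 CPM with PBMT, overlapped between the groups, and Itga7, an integrin of muscle fibers and satellite cells, was the most abundant.

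Notch and Wnt genes had 29 of 45 higher, with a median of 0.08 (0.11 without control replicate 4 and 0.04 without PBMT replicate 6). On the higher side 7 were at the unadjusted limit (15.6% beside 3.33% of all genes), 6 without control replicate 4 and 4 without PBMT replicate 6. On the lower side 1 was there (2.22% beside 4.3% of all genes), and 3 without PBMT replicate 6. Heyl, a Notch effector of satellite cells and pericytes, had a lowest level of 4.17, a median of 6.06 and a highest of 7.08 CPM in controls, against 6.65, 8.21 and 13.1 CPM with PBMT, with 5 of 6 PBMT mice above every control. The Notch ligand Jag1 was higher by 0.46, the Wnt receptor Fzd7 by 0.34 and the Wnt target Axin2 by 0.28 on the log2 scale. Notch4, an endothelial receptor, was lower by -0.46, and by -0.28 without control replicate 4, where it was highest. Angiogenic ligands and receptors had 17 of 29 higher, with a median of 0.07 (0.06 without control replicate 4, 0.11 without control replicate 1 and 0.03 with the length trend taken out) that turned to -0.02 without PBMT replicate 2. Of these, 7 were at the unadjusted limit on the higher side and 2 on the lower, 24.1% and 6.9% beside 3.33% and 4.3% of all genes. The higher count was 4 without PBMT replicate 1 or 5 and 3 without PBMT replicate 2. The lower count was 5 without PBMT replicate 2, where it exceeded the higher count, and 1 without control replicate 3 or 5 or PBMT replicate 1, 3 or 6. The VEGF receptor Kdr, the endothelin Edn1 and its receptor Ednra, the ephrin Efnb2 and the lymphatic growth factor Vegfc were higher by 0.45, 0.67, 0.47, 0.33 and 0.49 without passing, and placental growth factor Pgf was lower by -0.80. The pericyte channel Kcnj8 was higher by 0.36.

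Secreted and membrane proteins gave further single genes close to the adjusted limit. Tnfsf10, the death ligand TRAIL, had a lowest level of 2.76, a median of 3.82 and a highest of 4.23 CPM in controls, against 4.67, 6.75 and 8.625 CPM with PBMT, without overlap. It did not pass with all mice (0.86, edgeR adjusted p = 0.0503, 6 of 6 PBMT mice above every control) and passed without control replicate 4 (0.79, edgeR adjusted p = 0.0378) and without PBMT replicate 4 (0.94, edgeR adjusted p = 0.00848). Kcnj2, the inward rectifier that sets the resting potential of fibers, had a lowest level of 23.4, a median of 31.55 and a highest of 36.3 CPM in controls, against 36.8, 51.4 and 69.0 CPM with PBMT. Kcnj2 did not pass with all mice (0.73, edgeR adjusted p = 0.0562, 6 of 6 PBMT mice above every control), nor without control replicate 4 (0.67, edgeR adjusted p = 0.076). It passed without PBMT replicate 4 (0.81, edgeR adjusted p = 0.00848) and without PBMT replicate 5 (0.76, edgeR adjusted p = 0.0467). The amino acid transporter Slc38a4 was higher by 0.50 and passed without PBMT replicate 2 (0.55, edgeR adjusted p = 0.0398) but not with all mice. Among growth factors, Gdf11, a relative of myostatin, ran from 4.32 to 6.35 CPM in controls and from 6.47 to 10.2 CPM with PBMT without overlap, and the muscle-specific Fgf6 was higher by 0.53. On the lower side, Tes, a LIM protein of focal adhesions, had a lowest level of 2.27, a median of 2.85 and a highest of 3.79 CPM in controls, against 1.40, 1.56 and 2.03 CPM with PBMT. Tes did not pass with all mice (-0.86, edgeR adjusted p = 0.0638). It passed without control replicate 4 (-0.89, edgeR adjusted p = 0.038) and without PBMT replicate 2 (-0.93, edgeR adjusted p = 0.0398). Ace, the angiotensin-converting enzyme, passed without control replicate 4 (-0.44, edgeR adjusted p = 0.0378), in which it was lowest among controls at 23.96 CPM. Ace did not pass with all mice (-0.37, edgeR adjusted p = 0.349).

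Several lists of contractile genes, and collagens among the matrix lists, moved without control replicate 4. Myosin heavy chains had 10 of 13 lower at a median of -0.20, which turned to 0.03 without control replicate 4, with 8 higher. Collagens had 22 of 38 lower at a median of -0.15, which was -0.03 without control replicate 4 and -0.07, -0.08 and -0.10 without PBMT replicate 1, 3 and 4. Matrix proteases and inhibitors had a median of -0.06 (-0.08 without control replicate 4), which was -0.10 without control replicate 5 and -0.13 and -0.16 without PBMT replicate 2 and 6. Laminins, integrins and matrix glycoproteins had -0.03 (-0.04 without control replicate 4), which was 0.0003, -0.09 and -0.06 without control replicate 1, 5 and 6, -0.09 and -0.0064 without PBMT replicate 2 and 3, and -0.07 with the length trend taken out. Smooth muscle and pericyte markers had a median of -0.03 that ran, with 1 mouse left out, from -0.08 without control replicate 1 to 0.12 without control replicate 4 and was -0.06 with the length trend taken out, and their sum was 6783 CPM in control replicate 4 against 4023 to 4301 CPM in the other controls. Most of that sum came from Des, at a mean of 3628 CPM in controls beside a mean sum of 4562 CPM. Giant sarcomere and cytoskeletal proteins had 22 of 28 higher at a median of 0.08 and 0.15 without control replicate 4, 0.04 without control replicate 3, but -0.04 with the trend on exon length taken out. Slow fiber markers were lower in 7 of 10 with a median of -0.19 (-0.11 without control replicate 4, and -0.12 with the length trend taken out), and fast fiber markers were higher in 7 of 10 with a median of 0.05 (0.07 and all 10 without control replicate 4, 0.08 without PBMT replicate 2 and 0.12 with the length trend taken out). Both sides were held by heat shock genes (11 of 23 higher), unfolded protein genes (13 of 27), PGC-1 and mitochondrial biogenesis genes (16 of 34), proteasome genes (25 of 48) and translation initiation and elongation genes (40 of 68). The higher members of these lists were 13, 14, 17, 26 and 45 without control replicate 4, and their medians, all within the range from -0.02 to 0.03 in both fits, depended on the mouse left out.

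**Figure D3:**
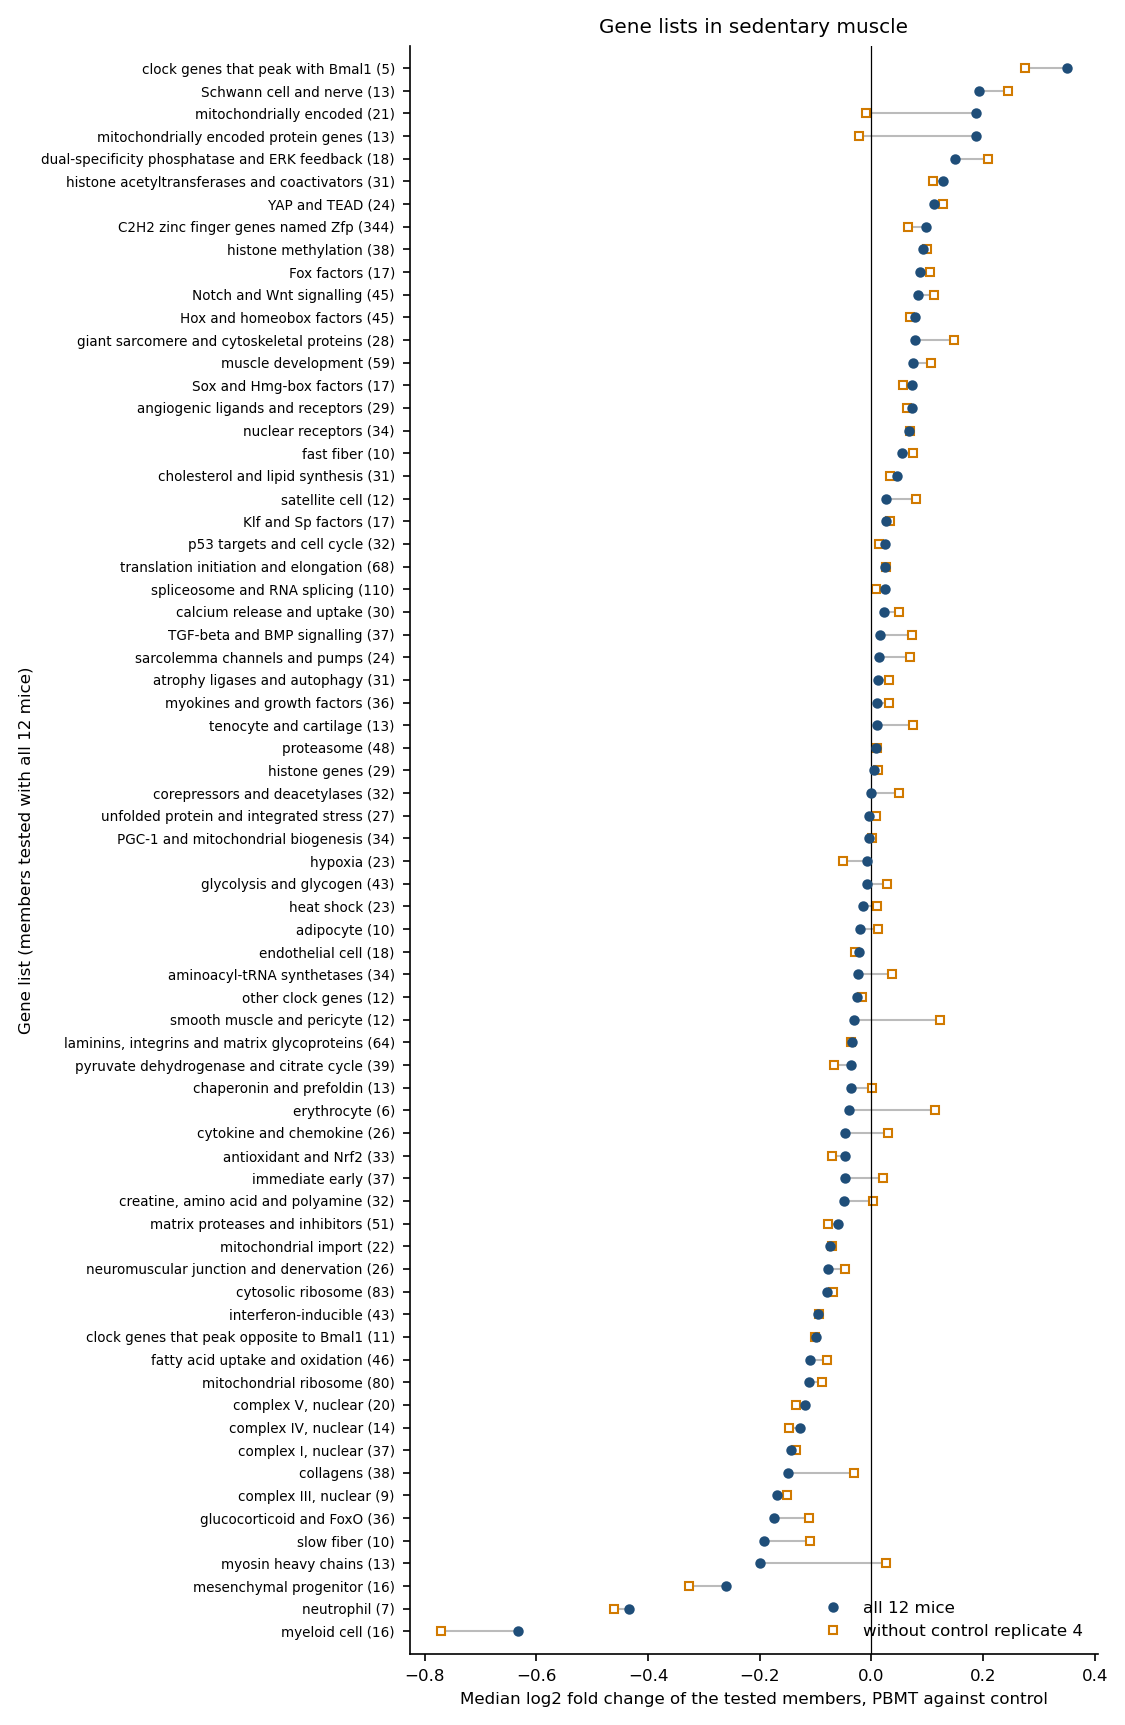
Median log2 fold change, PBMT against control, of the tested members of each gene list with at least 5 tested, with all 12 mice as filled circles and without control replicate 4 as open squares. Myeloid cell markers lie lowest at -0.63 with all mice and -0.77 without control replicate 4, and clock genes that peak with Bmal1 lie highest at 0.35 and 0.28.

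The sides also differed in the kinds of genes they held. Protein-coding genes made up 93% of the 472 higher genes and 86.9% of the 610 lower genes, beside 88.8% of all genes tested. Processed pseudogenes were 11 genes on the higher side (2.33%) and 38 on the lower side (6.23%), beside 4.37% of all genes. The lower side turned without control replicate 4, where it held 91.4% protein-coding genes and 19 processed pseudogenes (2.72%), while the higher side held 95.2% and 9 (1.44%). The median summed exon length was 6352 bases on the higher side, 2961.5 bases on the lower side and 4211 bases over all genes. Without control replicate 4 it was 5872 bases on the higher and 3283.5 bases on the lower side. In 5 equal groups of 2834 genes by exon length, from the shortest to the longest, the median log2 fold change was -0.09, -0.03, -0.0005, 0.02 and 0.08, and without control replicate 4 it was -0.06, -0.02, 0.0039, 0.02 and 0.06. Across the 14177 genes, which are not independent replicates, the Spearman correlation of log2 fold change with exon length was 0.303, and 0.239 without control replicate 4. In fatigued muscle it was -0.0227 across 14574 genes, and the difference between the exercise states was not tested. In each mouse, the median deviation of genes from their mean over mice was taken in the longest and the shortest of the 5 groups. The longest minus the shortest ran from -0.30 to 0.10 on the log2 scale in controls and from -0.12 to 0.15 with PBMT. This difference did not pass the test (p = 0.0909 by an exact permutation test, and exact p = 0.169 without control replicate 4). The part of RNA length in the lists above was not tested beyond the values with the trend taken out. Of the genes at the unadjusted limit, 106 of 472 higher and 135 of 610 lower genes were on any of the 74 lists examined, beside 2241 of 14177, so most of either side lay outside them.

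**Figure D4:**
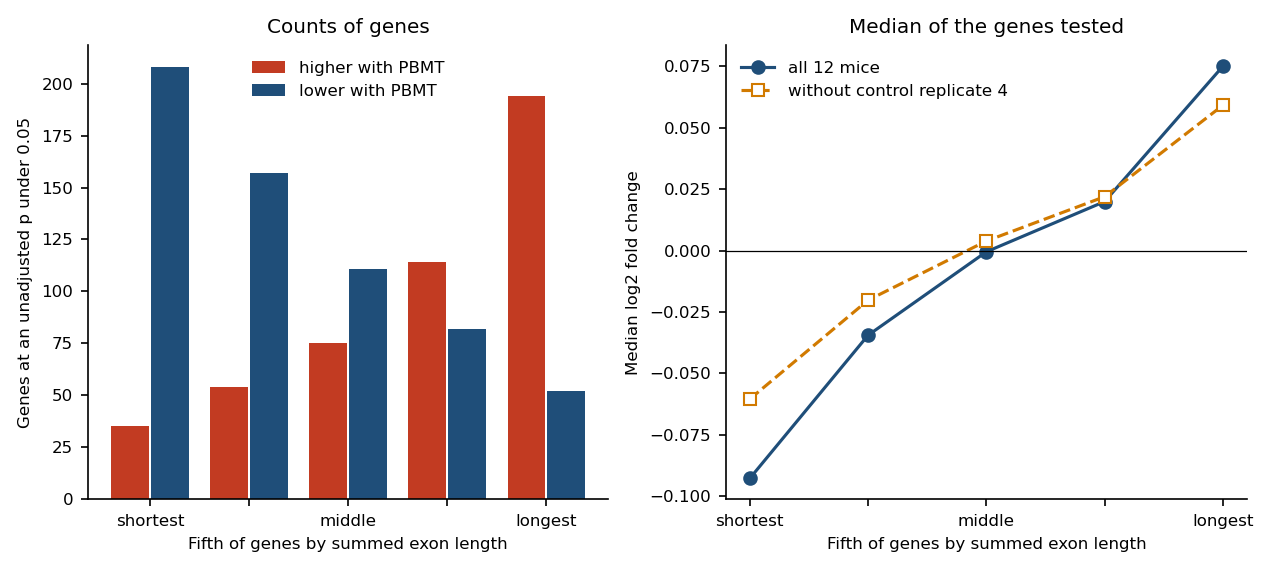
Genes at an unadjusted p under 0.05 and median log2 fold change in 5 groups of genes by summed exon length, 2834 genes each, with bars for genes higher and lower with PBMT and lines for all 12 mice and without control replicate 4. The higher genes increase from 35 in the shortest group to 194 in the longest, and the lower genes decrease from 208 to 52.

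In fatigued muscle, against its own controls, some lists had the sign they had in sedentary muscle and others did not. The median was of the same sign for YAP and TEAD genes (0.08, 19 of 24 higher), dual-specificity phosphatase and ERK feedback genes (0.09, 14 of 18 higher) and clock genes that peak with Bmal1 (0.14, 4 of 5 higher). Nuclear genes of complex I were lower in 34 of 37 at a median of -0.04, those of complex III in 8 of 9 at -0.06, of complex IV in 12 of 14 at -0.03 and of complex V in 17 of 19 at -0.06. The mitochondrial ribosome had 47 of 79 lower at -0.0080, and muscle development genes 37 of 59 higher at 0.04. The median was of the other sign for myeloid markers (0.19, 14 of 16 higher), mesenchymal progenitor markers (0.10, 14 of 16 higher), glucocorticoid and FoxO targets (0.09, 27 of 36 higher), fatty acid genes (0.05, 36 of 46 higher), Zfp genes (-0.04, 218 of 346 lower) and acetyltransferases and coactivators (-0.01, 20 of 31 lower). The median over all genes was 0.0041 there. These differences between exercise states were not tested for lists, and of single genes Nfil3 was the only one to pass in edgeR.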

How the data were processed

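Gene counts of the 12 sedentary libraries were used as deposited: the authors trimmed reads with Trimmomatic, aligned them with STAR 2.7.1a to GRCm38 and made the count tables, and their notes name both featureCounts 1.6.0 and HTSeq, so which of them made these counts is not known. Genes were matched to GENCODE M21, which held 55227 of 55487. Counts were tested in R 4.3.3 with the quasi-likelihood test of edgeR 4.0.16 after TMM normalization and a filter on low counts with a minimum of 10, and p values were adjusted by Benjamini-Hochberg at 0.05. The edgeR p values test the difference between groups against the spread between mice. Totals ran from 43271093 to 52775844 counts per mouse, at which 1 CPM lies above the filter's minimum of 10 counts in every mouse. The edgeR step was tested on simulated data, where 156 of 200 genes changed by 2 times were called with 10 unchanged ones. The simulated data held no mouse set apart, no trend on exon length and no correlation between genes, so this run does not cover those features.

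Genes were named if they were called, if they were among the 20 genes per side with the smallest unadjusted p and a mean of at least 1 CPM in a group, if they were among the 4 members per direction of a list with the smallest p, or if they define a marker list. The members and lists were chosen with earlier results of these data known. Lists are described by counts and medians and were not tested. Some genes are on more than 1 list, so the counts of different lists are not independent. No 2 of the 12 libraries were copies of each other, with a lowest chi-square per degree of freedom of 11.5 over 66 pairs. Alternatives were another filter or no filter, other scaling, DESeq2 1.42.0, limma 3.58.1 with voom, all 24 mice in 1 fit, the replicate number as a block, each mouse left out, and a trend on exon length taken out of each library. Reading that trend for each list was chosen after seeing the data. The summed levels and most abundant genes of some marker lists are not reported here.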

Additional observations from a re-analysis of the deposited data

Results flagged for a closer look

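Single mice were compared with the rest of their group by Dixon's ratio, and 8 of 100 groups of 6 passed the critical value, where chance alone passes about 1 in 20. Control replicate 4 had 3.245% of its counts from mitochondrially encoded genes, and the nearest control had 15.53%. It also had the highest sums of fast fiber markers (197700 CPM, nearest 151900), smooth muscle and pericyte markers (6783 CPM, nearest 4301) and satellite cell markers (212.8 CPM, nearest 160.8), the highest Txnip (668.1 CPM, nearest 487.6) and the lowest Coq10b (16.8 CPM, nearest 26.23). Des was the most abundant smooth muscle and pericyte marker, at a mean of 3628 CPM in controls beside a mean sum of 4562 CPM. Itga7 was the most abundant satellite cell marker, while Pax7 was lowest among controls in control replicate 4, at 1.067 CPM. Whether these sums follow cell numbers was not tested. PBMT replicate 4 had the highest sum of skin keratinocyte markers (40.99 CPM, nearest 18.48), and PBMT replicate 6 the lowest sum of adipocyte markers (2784 CPM, nearest 3293). The effect of PBMT on Nfil3 differed between fatigued and sedentary mice by 1.112 on the log2 scale, which passed the adjusted test in edgeR. The cause of these values was not tested.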

How the results depend on the processing

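The 4 calls with all mice became 16 without a filter on low counts, 60 with the defaults of DESeq2, 62 with DESeq2 on the filtered genes, 47 with limma voom, 1 with all 24 mice in 1 fit, 11 with the replicate block and 12 with the length trend taken out, and from 2 to 20 with 1 mouse left out. Of the calls, 3 were higher and 1 lower with all mice, 22 and 38 with the defaults of DESeq2, 24 and 38 with DESeq2 on the filtered genes, 11 and 36 with voom, 8 and 8 without a filter, 7 and 4 with the replicate block, 7 and 5 with the length trend taken out, 6 and 12 without control replicate 4, and 7 and 13 without PBMT replicate 5. With all 24 mice in 1 fit the edgeR adjusted p was 0.116 for Ccn1, 0.113 for Egr1 and 0.389 for Cited2, and Egr1 was also at 0.0513 without a filter and 0.141 in voom. Genes at an unadjusted p under 0.05 numbered 1082, and 2125 without a filter, 2034 with voom, 1028 with the replicate block and from 769 to 1754 with 1 mouse left out. Genes without overlap numbered 72, and from 84 to 259 with 1 mouse left out. The difference between exercise states passed for 1 gene in edgeR and 3 in DESeq2. Same-number mice correlated at -0.0859 to 0.0843 and 0 of 6 controls correlated best with their own number, so the shared numbers were not used as pairs. Among named genes, Itga7 was at -0.08 on the log2 scale and changed sign in voom (0.02928) and without control replicate 4 (0.03037), and was at -0.1275 without PBMT replicate 4, and no other named gene changed direction. With 6 mice per group and sequencing of 1 muscle at 1 time, small effects may be missed, and no heated or sham-lit control separates light from heat. Core body temperature was monitored in both groups, and a fan was used where needed against heating by the light. The cause of the changes between settings was not tested.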
